A study of Bos taurus with 8 samples.

Results

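A window of chromosome 3 that is known in mammals for the S100 genes and for the epidermal differentiation complex was examined in RNA-Seq data of 8 cattle tissues. Members were all loci with an Ensembl transcript identifier that lay wholly between positions 16700000 and 19300000 of the UMD3.1 assembly. This gave 57 of the 24886 loci with an identifier in the whole table, and position was the only criterion. The libraries came from whole testes, uterus intercaruncular, mammary gland (labelled mammary/parenchyma), frontal cortex, ileum, nucleated blood cells, abomasum, which is the glandular stomach, and rumen, the first and largest of the forestomachs, each with 1 library of Bos taurus tissue. A difference between tissues therefore had no replicate check and was not tested. The labels of the RNA libraries gave no breed, sex or age. In the methylation arm of the study the tissues came from a Hereford cow and her relatives. There the rumen came from a male fetus, the testes from an adult male, the uterus and blood cells from adult females, and the mammary gland, cortex, abomasum and ileum from juvenile females. Whether the RNA came from the same animals is not given in the sources used here. In bulk tissue, more cells of a type and more RNA per cell cannot be told apart.

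S100 proteins are small calcium-binding proteins with EF-hand motifs, which mostly act as dimers inside cells and, for some members, as signals outside them. S100A8, S100A9 and S100A12 are known as abundant proteins of neutrophils and are also made by stratified epithelia under stress. The epidermal differentiation complex holds the genes of proteins such as loricrin, involucrin and the small proline-rich proteins, which transglutaminases cross-link into the cornified envelope, the tough shell of terminally differentiated squamous cells. It also holds the fused S100-type genes, among them trichohyalin, repetin and cornulin. The mature rumen is lined by a keratinized stratified squamous epithelium, whereas abomasum and ileum are lined by a single layer of glandular or absorptive cells. Whether the rumen sampled here had such a lining was not tested.

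In the RefSeq annotation of another assembly, ARS-UCD2.0, the protein-coding genes from S100A1 to S100A10 number 45, and 14 of the 68 RefSeq genes on that stretch carry an S100 symbol. In that annotation S100A1, S100A13, S100A14, S100A16, S100A2, S100A3, S100A4 and S100A5 stand next to each other. S100A8, S100A12 and S100A9 are neighbours, followed by PGLYRP4, PGLYRP3 and LORICRIN. IVL, which encodes involucrin, and SMCP, a gene of the sperm mitochondrial capsule, stand side by side, and RPTN, TCHH and TCHHL1 precede S100A11 and S100A10. The deposited table does not pair its identifiers with symbols, and 0 identifiers matched a symbol, so no locus below is given a gene name and the label of the window could not be checked gene by gene. The lists of tissue marker genes could not be looked up in the table for the same reason. Loci are numbered 1 to 57 in order along the chromosome.

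The values were FPKM, which scale fragments by transcript length and library size, so levels of different loci are compared per length. Loci with an FPKM of 1 or more were counted as expressed. The depth recovered from short loci ran from 6059000 scaled reads in mammary gland to 15583000 in rumen. At these depths a transcript of 1000 bases at 1 FPKM was covered by 4.40 to 11.3 reads. A count of 0 on it left room for up to 0.265 to 0.681 FPKM, by counting error only.

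Rumen had the highest summed level in this window, and blood cells came next. The FPKM summed over the 57 loci was 47890.5 in rumen and 10064 in blood cells. It was 1036 in uterus, 1328 in ileum, 2216 in abomasum, 2542 in mammary gland, 2566 in testes and 2893 in cortex. The window held 0.229% of the loci with an identifier, mitochondrial loci left out. It took 3.96% of the summed FPKM of such loci in rumen and 1.42% in blood cells. The share was 0.484% in cortex, 0.439% in mammary gland, 0.415% in testes, 0.315% in abomasum, 0.215% in uterus and 0.200% in ileum. Of the sum over all loci, with or without an identifier, the 57 loci made up 2.12% in rumen, 1.05% in blood cells and 0.276% in testes. They made up 0.0291% in abomasum, which was then the lowest library. The window's own loci without an identifier were counted in that total only, and not in the share. They summed to 22829 FPKM in rumen and 58473 in abomasum. In abomasum most of this came from short loci with few reads, at 39716 and 18692 FPKM. A single locus, locus 17, made up 65.0% of the window sum in rumen and 43.6% of that in blood cells. Without the highest locus of each library the share was 1.39% in rumen, 0.800% in blood cells, 0.255% in cortex, where locus 5 was left out, and 0.129% in ileum.

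**Figure D1:**
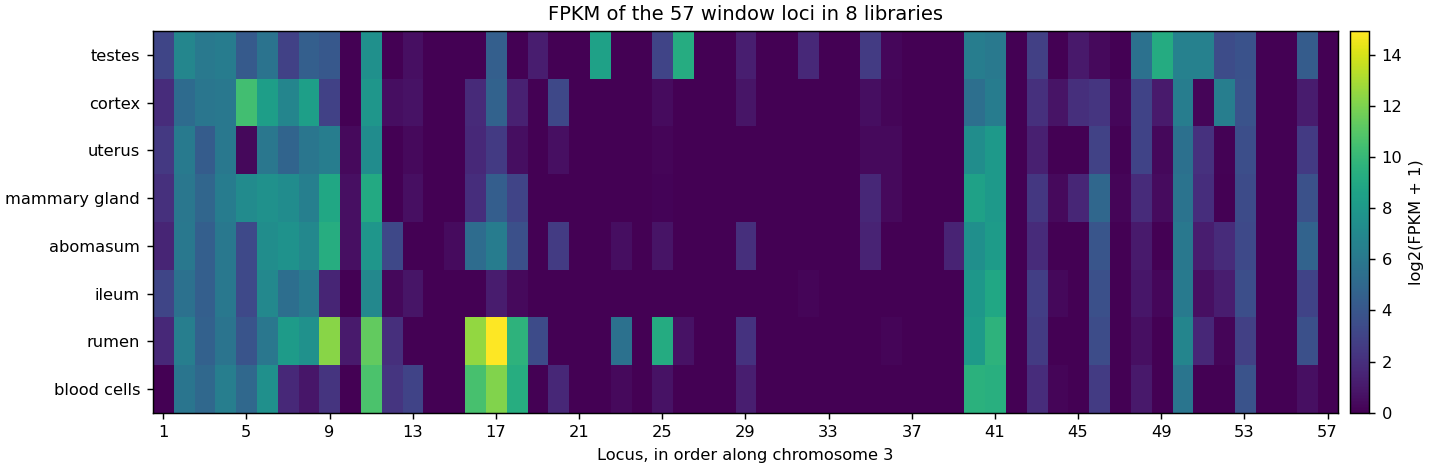
Colour gives log2(FPKM + 1) for the 57 window loci (x axis, in order along chromosome 3) in the 8 libraries (y axis, 1 library per tissue). The brightest cell is locus 17 in rumen (31149 FPKM), followed by loci 16 and 9 in rumen and by locus 17 in blood cells, and loci 27 to 39 are dark in nearly all libraries.

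Of the 57 loci, 38 were expressed in at least 1 tissue, against a background of 70.3% of all loci with an identifier. Another 5 had a highest FPKM above 0 but below 1, and 14 were listed at 0 in all 8 tissues, where the background was 23.6%. Expression was found in exactly 1 tissue at 7 loci (12.3%, background 9.98%), in 2 to 7 tissues at 18 (31.6%, background 24.4%) and in all 8 at 13 (22.8%, background 35.8%). Testes had the highest count, with 29 expressed window loci (background 58.2%). Abomasum had 28 (background 51.0%), rumen 27 (48.4%), cortex 25 (51.7%), mammary gland 24 (51.2%), blood cells 22 (45.0%), uterus 20 (51.8%) and ileum 19 (52.9%). The counts of testes, abomasum and rumen lay close together, and their order changed with the setting. At a limit of 5 FPKM they were 24, 20 and 22, and without loci of shared coordinates each was 23.

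The tissue with the highest FPKM was then determined for each of the 38 expressed loci. Rumen was highest at 13 loci (34.2%), against a background of 12.1% of all expressed loci. Testes were highest at 10 (background 30.8%), cortex at 7 (16.0%), blood cells at 3 (15.1%), abomasum at 3 (9.16%), mammary gland at 1 (4.77%) and ileum at 1 (4.60%). Uterus was highest at 0 loci (background 7.46%). The median tau index, which runs from 0 for an even level across tissues to 1 for a single tissue, was 0.683 over the 38 loci and 0.436 over all 17484 expressed loci with an identifier.

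Enrichment in a tissue was called for expressed loci whose FPKM + 1 there reached 5 times the value of the tissue ranked second. In the window 11 loci were enriched in a tissue, against a background of 12.1%. Of these, 4 were enriched in rumen (7.02% of the window, background 0.763%), 5 in testes (background 6.61%) and 2 in cortex (background 2.41%). At a limit of 10 times, 2 were enriched in rumen and 0 in cortex, and among loci with a single identifier at a single locus the count in cortex was also 0. No locus was enriched in blood cells (0 loci, background 0.932%), ileum (0.410%), uterus (0.402%), abomasum (0.386%) or mammary gland (0.217%).

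**Figure D2:**
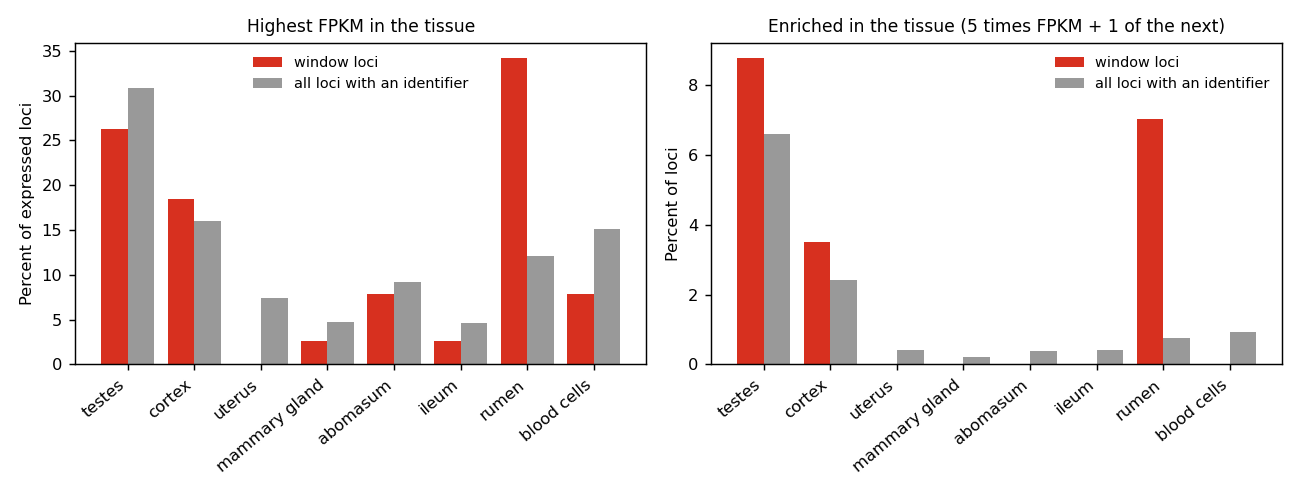
Bars give the percent of loci whose highest FPKM was in a tissue (left, among expressed loci) and the percent enriched in a tissue (right), for the window loci (red) and for all loci with an identifier (grey), with 1 library per tissue. Rumen stands at 34.2% against 12.1% on the left and at 7.02% against 0.763% on the right.

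Loci 16, 17 and 18 lie next to each other within a short stretch and were high in rumen and blood cells. Locus 17 (chr3:17163356-17165408, UMD3.1) names more than 1 identifier and had the highest value of the window. Its FPKM was 31149 in rumen, 4387 in blood cells, 74.8 in abomasum, 24.7 in cortex, 21.8 in testes, 20.7 in mammary gland, 4.88 in uterus and 1.19 in ileum. Among all loci with an identifier, mitochondrial loci left out, it had rank 2 in rumen and rank 16 in blood cells. Rumen stood apart from all other libraries, and blood cells from the remaining ones.

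Locus 16 (chr3:17146699-17147997) had an FPKM of 5827 in rumen and 1509 in blood cells. It was 38.4 in abomasum, 2.85 in mammary gland, 2.40 in cortex and 2.30 in uterus, and it was listed at 0 in testes and ileum. Locus 18 (chr3:17176217-17179040), which also names more than 1 identifier, had an FPKM of 802 in rumen and 621 in blood cells, 11.5 in abomasum, 7.47 in mammary gland, 1.53 in cortex, 0.457 in uterus and 0.307 in ileum, with 0 listed in testes. In FPKM, all 3 loci thus had the same order for their highest tissues, rumen, blood cells and abomasum. The summed FPKM of loci with an identifier, mitochondrial loci left out, was 1208170 in rumen and 709665 in blood cells. As a share of that sum, locus 18 was higher in blood cells (0.0875%) than in rumen (0.0664%). The excess of rumen over blood cells was unequal among them, with FPKM ratios of 3.86 at locus 16, 7.10 at locus 17 and 1.29 at locus 18. Of the sum over the 3 loci, locus 17 made up 82.5% in rumen, 67.3% in blood cells and 60.0% in abomasum, and locus 18 made up 2.12%, 9.53% and 9.20%. Together the 3 loci took 3.13% of the summed FPKM in rumen, 0.918% in blood cells, 0.0177% in abomasum and at most 0.00536% in each other library. Whether blood within the tissues played a part in the rumen or abomasum values was not tested.

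A second group of high loci lies near the start of the window, in a row of loci that were expressed widely. Locus 9 (chr3:16869280-16872942, ENSBTAT00000000589) had an FPKM of 4926 in rumen, 620 in abomasum, 472 in mammary gland and 79.6 in uterus. It was 16.3 in testes, 6.47 in cortex, 3.69 in blood cells and 1.93 in ileum. Rumen was highest, with 7.93 times the FPKM + 1 of abomasum, and blood cells were among the lowest libraries, unlike at loci 16 to 18.

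Locus 11 (chr3:16886145-16888570) was expressed at an FPKM of 126 or more in every library. Its FPKM was 2588 in rumen, 1636 in blood cells, 539 in mammary gland, 232 in abomasum, 228 in cortex, 182 in testes, 154 in uterus and 126 in ileum. Rumen and blood cells were again the highest pair, at a ratio of 1.58. As a share of the summed FPKM of each library, locus 11 was higher in blood cells (0.230%) than in rumen (0.214%).

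Loci 7 and 8 showed another order. Locus 7 (chr3:16827337-16829392) had an FPKM of 291 in rumen, 195 in abomasum, 151 in mammary gland, 111 in cortex, 41.0 in ileum, 27.1 in uterus, 6.26 in testes and 2.31 in blood cells. Locus 8 (chr3:16830493-16838159) was highest in cortex, at 339, followed by 190 in rumen, 123 in abomasum, 84.4 in mammary gland, 67.2 in ileum, 57.7 in uterus, 22.2 in testes and 0.837 in blood cells. Blood cells were the lowest library at both loci. As a share of the summed FPKM of each library, rumen at locus 7 (0.0241%) was below abomasum (0.0277%) and mammary gland (0.0261%).

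Loci 40 and 41 lie far from this row, in the second part of the window, and were expressed in all 8 libraries. Locus 40 (chr3:18768152-18770525) was highest in blood cells, at 751, with 370 in mammary gland, 280 in rumen, 238 in ileum, 172 in abomasum, 160 in uterus, 77.9 in testes and 43.1 in cortex. Locus 41 (chr3:18799561-18811617) had an FPKM of 813 in rumen, 680 in blood cells, 473 in ileum, 293 in abomasum, 272 in mammary gland, 257 in uterus, 76.6 in cortex and 64.5 in testes. Rumen and blood cells were the highest pair in FPKM at locus 41, where locus 40 had mammary gland between them. As a share of the summed FPKM of each library, rumen at locus 41 (0.0673%) was below blood cells (0.0958%) and ileum (0.0713%). Cortex and testes were the lowest libraries at both, and these values lie within a narrower range than those of loci 16 to 18.

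Over the whole window, 11 loci had an FPKM of at least 100 in rumen. Of these, 6 also reached 100 in blood cells (loci 11, 16, 17, 18, 40 and 41) and 4 were below 10 there (loci 7, 8, 9 and 25). Of the 1122 loci with an identifier at 100 or more in rumen, mitochondrial loci left out, 43.1% reached 100 in blood cells and 18.8% were below 10. These counts are small, no difference from the background was tested, and the limits were chosen after the values had been seen.

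**Figure D3:**
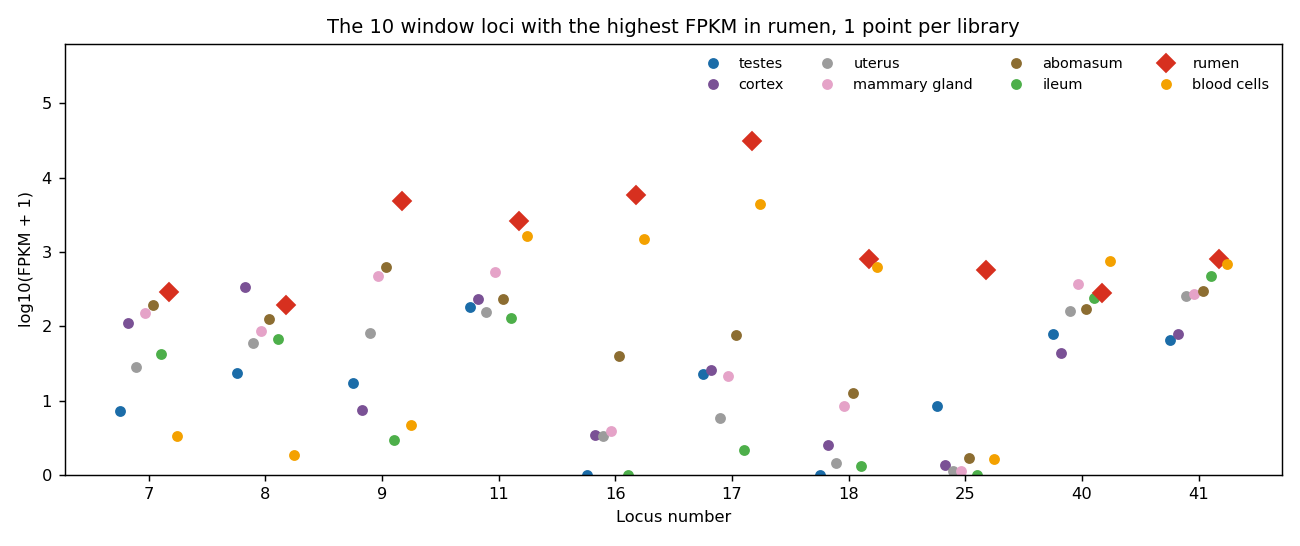
Points give log10(FPKM + 1) of the 10 window loci with the highest FPKM in rumen, with 1 point per library and rumen as a red diamond. Blood cells lie next to rumen at loci 11, 16, 17, 18 and 41, and far below it at loci 7, 8, 9 and 25.

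Loci 23 and 25 were nearly limited to rumen. Locus 25 (chr3:17882974-17889201, ENSBTAT00000023700) had an FPKM of 578 in rumen, 7.35 in testes, 0.703 in abomasum, 0.634 in blood cells, 0.348 in cortex, 0.136 in uterus and 0.122 in mammary gland, and it was listed at 0 in ileum. Locus 23 (chr3:17796522-17798736) had an FPKM of 47.1 in rumen, 0.477 in abomasum and 0.308 in blood cells, with 0 listed in the remaining 5 libraries. The FPKM + 1 of rumen was 69.4 times that of the next tissue at locus 25 and 32.6 times at locus 23. Locus 19 (chr3:17208937-17230651) was also highest in rumen, with an FPKM of 9.82 in rumen, 1.27 in testes and 0 listed elsewhere. It shares its stretch with 3 loci without an identifier, so its level is uncertain.

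Of the other loci that were highest in rumen, locus 50 (chr3:19059872-19067549) was even across tissues, with an FPKM from 44.4 in uterus to 110 in rumen. Locus 29 had an FPKM of 3.47 in rumen and 2.98 in abomasum, and locus 10 reached 1.09 in rumen, close to the limit for an expressed locus. As a share of the summed FPKM of each library, rumen was below testes at locus 50 (0.00911% against 0.0148%). By the same measure it was below abomasum at locus 29 (0.000287% against 0.000424%). Locus 2 was second highest in rumen, at 82.4, below testes at 116.

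Of the 57 loci, 5 were enriched in testes (8.77%), which is near the background of 6.61%, so their number is not a result about the window. Locus 26 (chr3:17907655-17912860, ENSBTAT00000007155) had an FPKM of 600 in testes and 0.681 in rumen, and was listed at 0 in the other 6 libraries. It lies next to locus 25, the locus nearly limited to rumen. Locus 49 (chr3:19053047-19057123, ENSBTAT00000046490) had an FPKM of 578 in testes, 1.13 in cortex, 0.379 in mammary gland, 0.232 in uterus and 0.221 in ileum, with 0 listed in abomasum, rumen and blood cells. Locus 22 (chr3:17320183-17340116) had an FPKM of 366 in testes, with 0 listed for each of the 7 remaining libraries. It shares its coordinates with locus 21, which was listed at 0 throughout.

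Locus 51 (chr3:19090884-19098231) had an FPKM of 93.1 in testes, while uterus had 3.46, mammary gland 2.92, rumen 2.11, abomasum 1.31, ileum 0.552 and cortex 0.139, with 0 listed in blood cells. Locus 48 (chr3:19030951-19052890) had an FPKM of 47.2 in testes, 7.18 in cortex, 7.08 in uterus, 2.59 in mammary gland and between 0.522 and 1.12 in the remaining libraries. Testes were the single high library at each of these 5 loci. Loci 48, 49 and 51 lie within a short stretch near the end of the window, with locus 50, expressed evenly, among them.

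**Figure D4:**
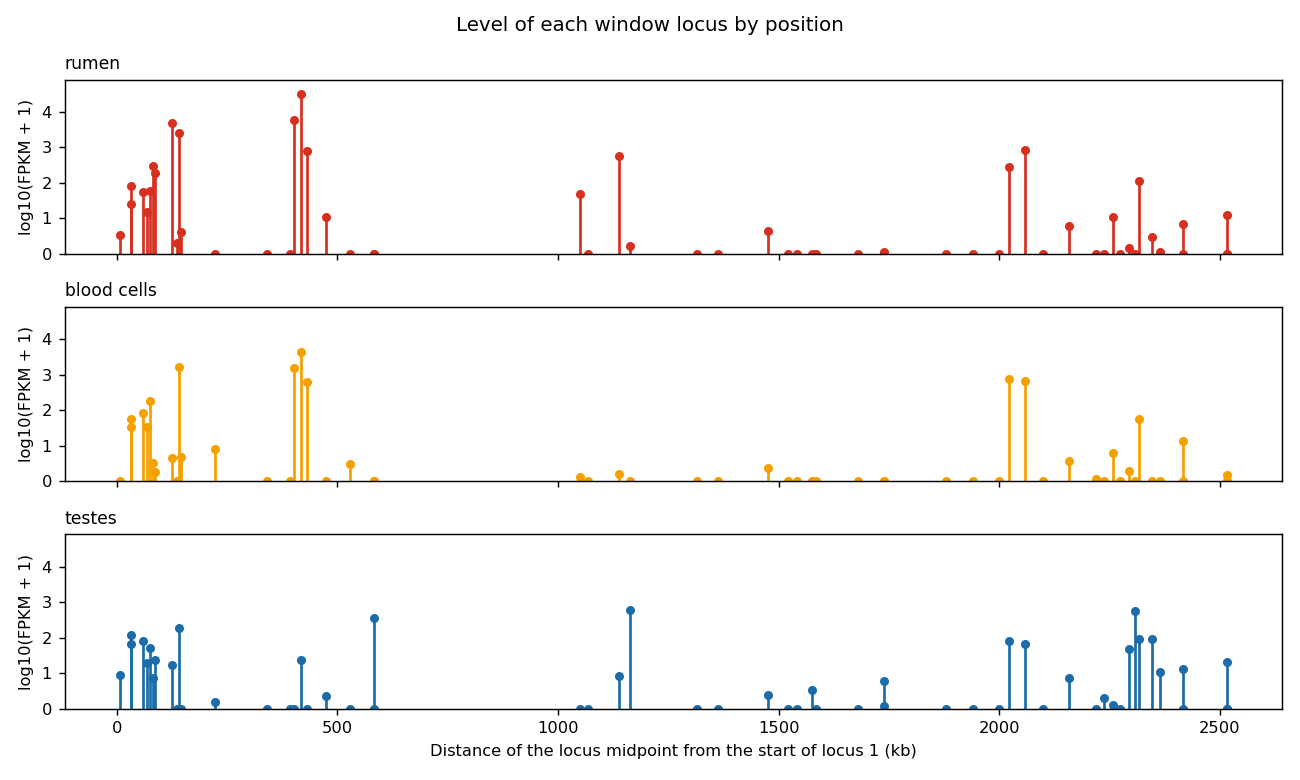
Stems give log10(FPKM + 1) of each window locus in rumen, blood cells and testes (1 library each) against the distance of its midpoint from the start of locus 1, in kb. Rumen and blood cells share the tall stems of loci 16 to 18 and of loci 40 and 41, while the testes stems of loci 22, 26 and 49 stand where both of them are below 1 FPKM.

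Cortex had 2 enriched loci (3.51%), near the background of 2.41%, so their number is not a result about the window. Locus 5 (chr3:16812243-16816588) names more than 1 identifier and had an FPKM of 1370 in cortex, 146 in mammary gland, 32.7 in blood cells, 17.9 in testes, 13.9 in rumen, 8.81 in abomasum, 8.75 in ileum and 0.270 in uterus. Cortex was highest and uterus alone was below 1. Locus 52 (chr3:19104736-19119703), with more than 1 identifier as well, had an FPKM of 82.5 in cortex, 9.95 in testes, 2.60 in abomasum, 1.32 in ileum, 0.0568 in uterus and 0.140 in rumen, and was listed at 0 in mammary gland and blood cells. The next neighbour of locus 5, locus 6, was also highest in cortex, at 325, but reached 188 in mammary gland and 178 in blood cells.

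The remaining tissues led at few loci. Blood cells were highest at locus 13 (chr3:16967602-16971446), with an FPKM of 7.17, where every other library was below 1 and rumen and abomasum were listed at 0. Mammary gland was highest at locus 46 (chr3:18991932-19018899), with 30.3 against 14.5 in abomasum. Abomasum was highest at locus 12, with 8.24 against 3.99 in blood cells and 3.06 in rumen, and at locus 56, with 25.5 against 19.3 in testes. Locus 39 had an FPKM of 1.85 in abomasum alone, where a locus of its span can hold at most 1.83 reads at that value. In ileum, locus 1 had an FPKM of 7.73 against 7.72 in testes, so no single tissue led there.

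The most even loci by the tau index were locus 4 (chr3:16801786-16811368), locus 53 (chr3:19125144-19204626) and locus 50. Locus 4 had an FPKM between 53.1 in rumen and 82.2 in blood cells, and a tau of 0.0544. Locus 53 ran from 6.15 in rumen to 13.2 in cortex, and shares its stretch with locus 54. Rumen was the lowest library at loci 4 and 53 and the highest at locus 50, at 110, so it had no common direction at these even loci.

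Position along the window was described in bins of 200 kb. The first bin, from 16700001 to 16900000, held 12 loci, all of them expressed, of which 4 were highest in rumen and 3 in cortex. The bin from 17100001 to 17300000, held 6 loci, of which 5 were expressed and 4 were highest in rumen. No member lay between locus 22 and locus 23, a gap of 456 kb. From 17900001 to 18700000, 4 bins held 13 loci, of which 4 were expressed, and the highest value other than that of locus 26 was 4.95 FPKM, in testes at locus 35. The last 2 bins held 15 loci, of which 10 were expressed and 1 was highest in rumen. Among the 37 pairs of neighbouring expressed loci, 11 (29.7%) had their highest FPKM in the same tissue, against a background of 24.2% of neighbouring pairs on all chromosomes. This share lies near the background, so it is not a result about the window.

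The 14 loci listed at 0 in all libraries differ in how much a 0 can say. Of them, 4 share their coordinates with another locus. Locus 33 spans 95 bases, where 3 reads would be worth at least 2220 FPKM, and locus 42 spans 78 bases, which is shorter than the shortest fragment of the length model. At locus 24, with 234 bases, 3 reads were worth at least 5.06 FPKM. At locus 31, with 504 bases, 3 reads were worth at least 0.714 FPKM in the deepest and 1.84 FPKM in the shallowest library. A listed 0 thus did not exclude an FPKM of 1 at loci 24, 33 and 42. The same held at locus 31 in mammary gland, ileum, cortex, uterus and testes. For the longer loci the transcript length is not known, so no limit is given.

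To ask where rumen differed from each other tissue, the ratio of FPKM + 1 in rumen to that in the other tissue was taken for every locus. Loci at least 5 times higher in rumen numbered 11 against testes (background 4.58%), 11 against cortex (4.23%), 10 against uterus (2.96%), 9 against ileum (2.33%), 8 against abomasum (2.68%), 8 against blood cells (6.71%) and 7 against mammary gland (2.73%). As shares of the 57 window loci these counts ran from 12.3% to 19.3%. Loci 9, 17, 23 and 25 were at least 5 times higher in rumen than in each of the 7 other tissues, and loci 16, 18 and 19 were so against 6 of them. For loci 16 and 18 the exception was blood cells, and for locus 19 it was testes. These 7 comparisons share the rumen library, so they are not independent of each other.

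Loci at least 5 times lower in rumen numbered 7 against testes (12.3%, background 11.8%) and 5 against cortex (8.77%, background 6.39%). There was 1 each against uterus (background 3.08%), mammary gland (2.35%), abomasum (2.89%) and blood cells (4.88%). None was found against ileum (0 loci, background 3.93%). The numbers against testes and cortex lie near the background, so they are not a result about the window. The loci lower than in testes were loci 22, 26, 35, 48, 49, 51 and 52. The single locus lower than in blood cells was locus 13. The median log2 ratio over the 38 expressed loci was 0.72 against uterus, 0.64 against ileum, 0.63 against cortex, 0.47 against blood cells, 0.29 against abomasum, 0.08 against mammary gland and 0 against testes. Over all expressed loci it was -0.29 against testes and 0 against each other tissue.

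**Figure D5:**
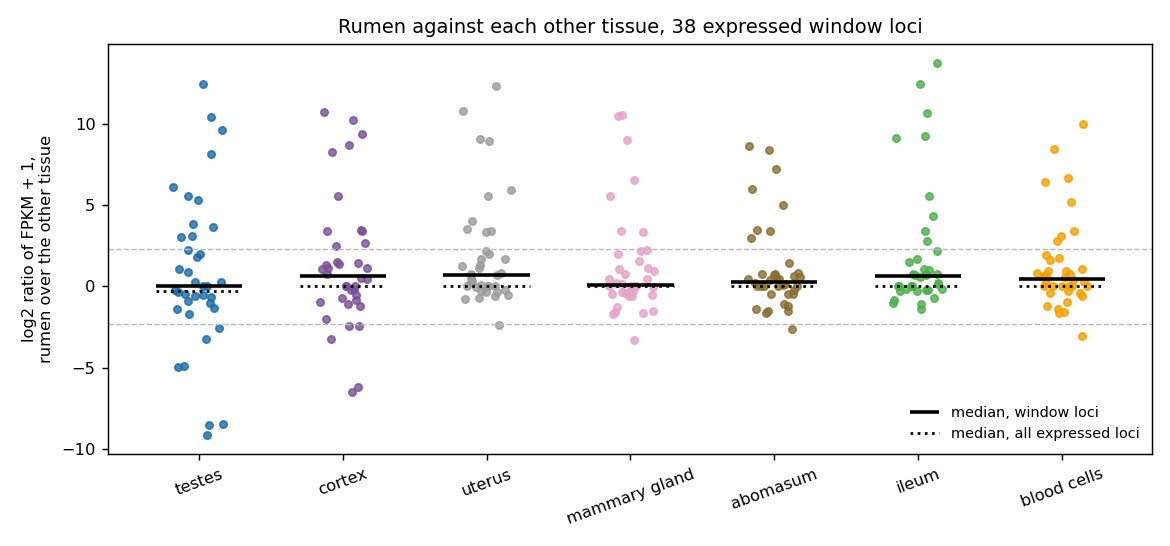
Points give the log2 ratio of FPKM + 1 in rumen to that in each other tissue for the 38 expressed window loci, with medians of the window loci (solid bars) and of all expressed loci (dotted bars). Dashed lines mark a ratio of 5 in either direction, which 7 to 11 loci pass upward and 0 to 7 downward.

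The library kit does not mark strand in its standard protocol, so reads of overlapping genes on opposite strands cannot be told apart. In the window 11 loci share their coordinates with another member, on 5 stretches, and 5 loci name more than 1 identifier. Near-identical copies of a gene could also exchange reads. Levels at these loci are uncertain, and loci 5, 17, 18, 52 and 56 are those with more than 1 identifier.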

How the data were processed

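RNA-Seq libraries of 8 cattle tissues were analysed, 1 per tissue, grouped by the tissue in their labels. According to the study's methods, the authors filtered single-end reads, aligned them to UMD3.1 with TopHat2 (version 2.0.13, also in the submitters' processing notes) and ran Cufflinks at default settings. The deposited values are FPKM as the authors' software scaled them between libraries. Fold changes, test statistics, p-values and q-values of the authors, each from 1 library against 1, were not used. Locus starts in the table were read as counted from 0, and 1 was added.

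Python 3.11.15, numpy 2.4.6 and pandas 2.3.3 were used. A pseudocount of 1 was added for ratios and for tau, computed on log2(FPKM + 1). Shares of summed FPKM left out 2 mitochondrial loci. Depth was recovered from loci of 88 to 130 bases without an identifier, with fragment lengths modelled as normal (mean 200, SD 80, lower limit 87 bases). The smallest depth that gave whole reads within 0.03 for at least 95% of them was taken. The counting, tau and depth steps were checked on simulated data with known answers.

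Loci named were the highest of each library, enriched loci, the 3 lowest in tau, the 10 highest in rumen, and others chosen after their values were seen. At most 2 identifiers higher and 2 lower in rumen are printed. The members and lists were chosen with earlier results of these data known. Alternatives covered thresholds, pseudocount, scaling, identifiers, window edges and tissues.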

Additional observations from a re-analysis of the deposited data

Results flagged for a closer look

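The window also held 38 loci without an identifier, which enter none of the comparisons above. Of these, 21 were enriched in rumen (55.3%), where 4.46% of all 11915 loci without an identifier were. The count was 2 (5.26%) in each of testes (background 25.5%), abomasum (10.6%), cortex (3.59%) and blood cells (1.69%), and 0 in uterus (0.403%), mammary gland (0.227%) and ileum (0.403%). At an FPKM of at least 1 there were 29 such loci in rumen (background 24.5%), 12 in blood cells (24.2%), 11 in abomasum (34.2%), 6 in testes (50.0%), 6 in cortex (32.6%), 3 in uterus (27.8%), 3 in mammary gland (23.4%) and 2 in ileum (24.4%). A locus without an identifier may be listed only because of the library in which it was high, and rumen was the deepest library. These counts are therefore a description only. Loci of shared coordinates were counted separately, among them 3 at chr3:17208937-17230651 and those at chr3:17700980-17743021.

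Some lay in the stretch in which the table has no identifier. Between loci 22 and 23, from 17340117 to 17796521, lay 16 loci without an identifier, of which 14 were highest in rumen and all 14 were enriched there. The locus at chr3:17700980-17743021 had an FPKM of 10450.5 in rumen, 7.68 in abomasum, 6.19 in blood cells, 6.08 in cortex and 0.507 in uterus, and was listed at 0 in testes, mammary gland and ileum. A second locus with the same coordinates had 1361 in rumen. The locus at chr3:17422785-17423987 had an FPKM of 5871 in rumen, 4.25 in cortex and 0.625 in uterus, with 0 listed elsewhere. Of the 16 loci, 15 reached an FPKM of 1 in rumen, and 6 did so in blood cells and in abomasum, where the highest values were 15.0 and 15.5. Their gene content was not tested, since no genome of this build was used here.

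Other high values rested on few reads. The locus at chr3:17678072-17678172 had 2675 FPKM in rumen, worth about 9.98 reads on a span of 101 bases. The loci at chr3:18735676-18735765 and chr3:18989075-18989166 had 39716 and 18692 FPKM in abomasum, each worth about 9.98 reads, and all 3 were listed at 0 in the other libraries. The cause of these short loci was not tested.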

How the results depend on the processing

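Of 326 alternative values 278 held, that is, they stayed within 1.5 times the reported count, share, median tau or ratio. All 48 counts of expressed loci, all 9 medians of tau and all 21 median ratios held. For the ratios this limit is wide beside their size. After rescaling, the median log2 ratio was 0.38 against uterus, 0.36 against cortex, 0.33 against ileum and 0.29 against blood cells. It was 0.04 against abomasum and 0 against mammary gland and testes. Over all expressed loci it then ran from -0.24 against uterus to 0 against blood cells. No paired analysis was possible because replicates were lacking in all groups and no test was run. Where no reason is given, the cause was not tested. The analysis without loci of shared coordinates was chosen after seeing the data. Depth limits loci near an FPKM of 1, with 4.40 reads there in mammary gland.

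Rumen was highest at 11 to 14 loci in every setting. Without loci of shared coordinates, testes were highest at 6. Rescaling gave 2 loci highest in mammary gland and 2 in ileum, and so did leaving out testes, which gave 1 in uterus. At 10 times, 2 loci were enriched in rumen and 0 in cortex, and at loci with a single identifier 0 in cortex. At 2 times, 1 was enriched in mammary gland, 1 in abomasum and 2 in blood cells, and a pseudocount of 0.1 gave 1 in abomasum and 1 in blood cells. At 2 times, a looser limit by construction, loci higher in rumen were 18 against cortex, 17 against uterus, 13 against mammary gland and 14 against ileum, and loci lower were 11 against testes, 8 against cortex, 6 against mammary gland, 7 against abomasum, 3 against ileum and 5 against blood cells. At 10 times, loci lower were 2 against cortex and 0 against each of uterus, mammary gland, abomasum and blood cells. A pseudocount of 0.1 gave 10 lower against cortex, 2 against uterus, 4 against mammary gland, 4 against abomasum, 2 against ileum and 2 against blood cells. Loci with a single identifier gave 3 lower against cortex and 0 against mammary gland, and 19.4% of neighbours with the same top tissue.

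The share of summed FPKM depended on single loci. With single identifiers, which leaves out loci 5, 17, 18, 35, 36, 52 and 56, it was 1.65% in rumen, 0.837% in blood cells and 0.277% in cortex. Without the highest locus it was 1.39% in rumen, 0.800% in blood cells, 0.255% in cortex and 0.129% in ileum. For the window loci with an identifier, taken of the sum over all loci, it was 2.12% in rumen, 0.276% in testes and 0.0291% in abomasum.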
